A study of Kandelia obovata with 24 samples.

Results

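The libraries labelled ABA-100 (10.2 ℃) and CK (10.2 ℃) were compared, 3 against 3, which is 6 of the 24 libraries of the series. They were chosen by their labels: both groups are leaf RNA of K. obovata, a mangrove tree, taken at 10.2 ℃, at the first of 4 stages of a natural frost event. ABA-100 names the seedlings that were to receive 100 mg L−1 abscisic acid (ABA) as a spray on the leaves. CK names the control seedlings, which were to receive no ABA and which the labels call wild type. By the study's methods the spray followed the first sampling, so as labelled neither group had been sprayed when these leaves were taken, and the comparison shows how far the 2 groups differed before the treatment. The volcano plots of the paper draw directions that conflict with the values of the libraries under their labels. Which of them is right was not tested here, every value below stands for the group as labelled, and a difference between the labels cannot be told apart from an exchange of libraries. The seedlings of ABA-100 and of CK are different plants, the replicates are biological ones by the methods, and whether a replicate number stands for 1 seedling is not given in the sources used here.

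ABA is a plant hormone made under water deficit and cold. In Arabidopsis, its receptors inhibit protein phosphatases of the magnesium-dependent 2C type, which frees serine/threonine kinases of the SnRK2 family, and these phosphorylate transcription regulators and NADPH oxidases. Closure of stomata, synthesis of protective compounds and tolerance of freezing are known outcomes of this pathway. The deposited table pairs its unigenes, the assembled transcripts taken as genes, with no names. A role was therefore at hand only for 12 hub unigenes that a supplement of the paper annotates, and a check of the leaf label against marker genes was impossible. In whole leaves, fewer cells of a type and less RNA per cell cannot be told apart.

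Values are TPM, relative abundances in which transcript length is corrected for and all libraries have one total. Per library, 25666, 25923 and 25798 unigenes were above 0 TPM in ABA-100 (10.2 ℃), against 25701, 25660 and 25825 in CK (10.2 ℃), and the groups overlapped (two-sided exact permutation p = 0.6). Across unigenes, which are not replicates, Pearson's r of log2(TPM + 1) was 0.966 to 0.975 between libraries of ABA-100, 0.971 to 0.974 between libraries of CK and 0.938 to 0.952 between libraries of the 2 groups. The first principal component of the 6 libraries held 51.3% of the variance, with scores of 94.7, 81.2 and 107 in ABA-100 and of -91.4, -84.9 and -107 in CK. The groups lay apart on it, at the smallest p that 3 against 3 allows (exact permutation p = 0.1, two-sided). On the second component, with 16.7% of the variance, the ABA-100 libraries scored 4.75, -3.29 and 8.41, against -58.4, -56.1 and 105 in CK. CK replicate 3 thus stood apart from the other CK libraries, and results that rest on it are also given without it.

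Transcript levels differed between the groups as labelled. In one limma fit of all 24 libraries on log2(TPM + 1), 1064 DEGs were called among the 21523 unigenes tested, which is 4.94% of them. Up-regulated DEGs numbered 717 (3.33% of all tested) and down-regulated DEGs 347 (1.61%), where up-regulated means higher in ABA-100 (10.2 ℃) than in CK (10.2 ℃). Both thresholds were those of the study: p adjusted by the method of Benjamini-Hochberg at most 0.05, and a log2 fold change beyond 1 in size. Without CK replicate 3 the counts were 696 up-regulated and 312 down-regulated. The p-values and standard errors rest on the spread between libraries within the 8 groups of this fit, pooled over all 24. For each unigene limma moved that spread toward a trend with mean level, fitted over all unigenes tested. Neither the p-values nor the errors rest on the spread of the 6 libraries labelled 10.2 ℃ alone.

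The split between the directions depended on the scaling. Over all unigenes tested the log2 fold change had a median of -0.14, so the bulk of unigenes sat slightly lower in ABA-100 (10.2 ℃). Scaling by median-of-ratios set that median to 0 and gave 857 up-regulated and 240 down-regulated DEGs, so that 78.1% of the DEGs were up-regulated in place of 67.4%. By adjusted p alone, 7836 unigenes (36.4%) passed, with 1940 higher (9.01%) and 5896 lower (27.4%). That majority of lower unigenes was lost under median-of-ratios scaling, with 3206 higher and 2604 lower, but not under quantile normalization, with 2552 higher and 3804 lower. Of the 717 up-regulated DEGs, 714 were shared with median-of-ratios scaling and 709 with quantile normalization. Of the 347 down-regulated DEGs, 240 and 285 were.

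**Figure D1:**
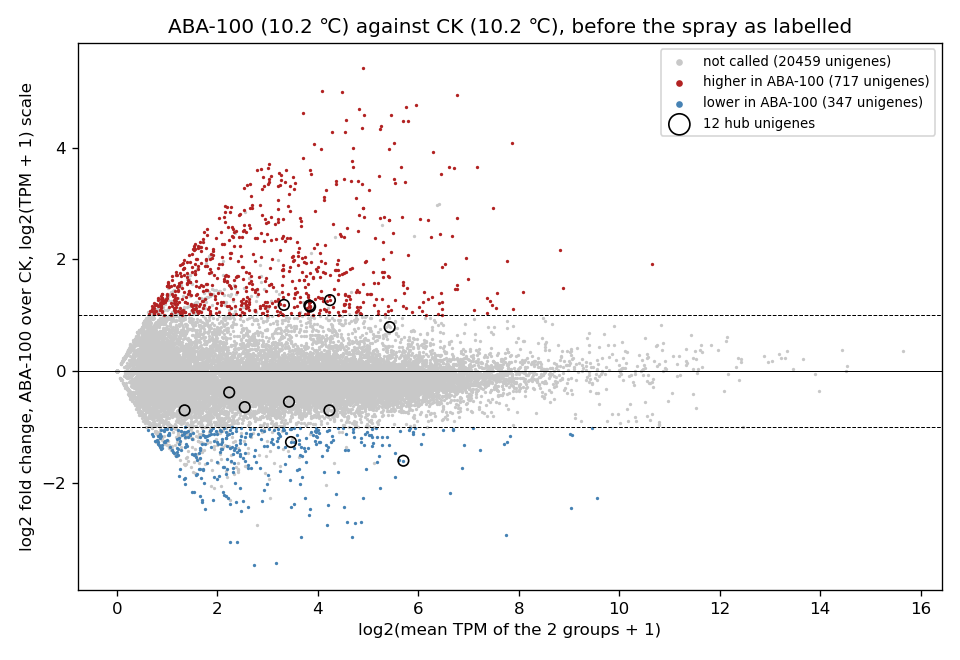
Log2 fold change of ABA-100 (10.2 ℃) over CK (10.2 ℃) against the mean level of the 6 libraries on the log2(TPM + 1) scale, 1 point per unigene tested, with 717 up-regulated DEGs in red, 347 down-regulated DEGs in blue, the 12 hub unigenes circled and dashed lines at a log2 fold change of 1 and -1. The red points reach 5.43, and the cloud as a whole lies a little below 0, with a median of -0.14.

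Up-regulated DEGs reached farther from 0 than down-regulated ones. The median log2 fold change was 1.57 among the 717 up-regulated DEGs (quartiles 1.21 and 2.23) and -1.30 among the 347 down-regulated DEGs (quartiles -1.63 and -1.13), with -0.14 over all unigenes tested. Beyond a log2 fold change of 2 there were 224 up-regulated and 46 down-regulated DEGs. Beyond 3 there were 78 and 4, and beyond 4 there were 21 and 0. Fold changes on this scale understate the change of low unigenes. All 3 CK libraries were at 0 TPM for 57 of the up-regulated DEGs, and all 3 ABA-100 libraries were at 0 for 42 of the down-regulated ones. Without these the medians were 1.57 and -1.27. Of the 57, 27 had at least 1 TPM in each ABA-100 library, and of the 42, 19 had at least 1 TPM in each CK library.

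The up-regulated DEGs were mostly low in CK and moderate in ABA-100. Their median level was 9.91 TPM in ABA-100 (10.2 ℃) and 1.63 TPM in CK (10.2 ℃). Among the down-regulated DEGs the median level was 2.01 TPM in ABA-100 and 7.50 TPM in CK. Together the 717 up-regulated DEGs took 2.34%, 2.35% and 2.31% of all TPM in the ABA-100 libraries, against 0.589%, 0.582% and 0.623% in the CK libraries. The 347 down-regulated DEGs took 0.409%, 0.425% and 0.394% in ABA-100, against 1.12%, 1.12% and 1.36% in CK. Both sets were chosen for a difference between these libraries, so their levels and shares are descriptions. By mean level over the 24 libraries, calls were most frequent between 1 and 10 TPM, where 348 of 6988 unigenes were up-regulated (4.98%) and 185 down-regulated (2.65%). Among the 118 unigenes at 1000 TPM or more, 1 was up-regulated and 3 were down-regulated.

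The spread between replicates was not equal in the groups. Over all unigenes tested, the median SD of log2(TPM + 1) was 0.0941 in ABA-100 and 0.117 in CK. Among the down-regulated DEGs it was 0.133 in ABA-100 and 0.322 in CK. CK replicate 3 held the highest of the CK values for 186 of the 347 down-regulated DEGs (53.6%), against 37.6% of all unigenes tested. The part of this library in the down-regulated DEGs was not tested beyond the counts without it. For 1009 of the 1064 DEGs the 3 ABA-100 values did not overlap the 3 CK values, 686 of them up-regulated and 323 down-regulated, where 48.7% of all unigenes tested did not overlap, 12.2% with ABA-100 above and 36.4% with ABA-100 below. The DEGs were chosen for a difference between these same libraries, so the count is a description.

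Hub unigenes, which the paper names as the top ones of its co-expression modules, are the ones with a role at hand. The study chose the 12 on these same libraries, so their directions are no independent evidence. Identifiers are given without the prefix TRINITY. Of the 12, 6 were DEGs at 10.2 ℃, where 4.94% of all unigenes tested were. The module MEturquoise gave 4 up-regulated DEGs of 5 hubs (median log2 fold change 1.18), MEbrown 2 down-regulated of 4 (median -0.98) and MEgrey 0 of 3 (median -0.64), with -0.14 over all unigenes tested. By adjusted p alone 9 of the 12 passed, where 36.4% of all unigenes tested did, and for 11 of the 12 the groups did not overlap, where 48.7% of all tested did not. Of the 9, DN3196_c0_g1 did not pass under either scaling or without any 1 of the ABA-100 libraries. No DEG call among the 12 changed under the scalings, filters, pseudocount, replicate block, 6-library fit or omission of any 1 library that were run, with DN8109_c0_g1 not tested under the stricter filter.

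The hubs include a phosphatase and a kinase that the supplement places in no pathway, so a part in ABA signalling is not known. DN477_c0_g1, annotated as a magnesium-dependent serine/threonine phosphatase, had 19.45, 18.7 and 18.3 TPM in ABA-100 (10.2 ℃), against 8.51, 8.02 and 7.19 TPM in CK (10.2 ℃). Every ABA-100 library was above every CK library by more than the range within either group. Its log2 fold change was 1.16 ± 0.064 (SE; limma, adjusted p = 5.72e-11). DN3221_c0_g1, a serine/threonine kinase, had 54.7, 54.6 and 51.4 TPM in ABA-100, against 30.7, 28.3 and 32.7 TPM in CK. The groups did not overlap, and the log2 fold change of 0.79 ± 0.074 (limma, adjusted p = 1.16e-07) was below the threshold for a DEG.

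Both hubs of mitogen-activated kinase signalling fell short of a call. DN3196_c0_g1, annotated as a MAP kinase kinase kinase, had 7.75, 7.25 and 8.09 TPM in ABA-100, against 13.3, 12.3 and 9.64 TPM in CK. All ABA-100 values were below all CK values, with a log2 fold change of -0.54 ± 0.19 (limma, adjusted p = 0.0284). That adjusted p was 0.154 under median-of-ratios scaling and 0.0854 under quantile normalization. DN7864_c0_g1, an NAD(P)H oxidoreductase listed in the MAP kinase pathway, had 2.61, 3.16 and 3.05 TPM in ABA-100, against 2.95, 2.97 and 7.48 TPM in CK. It is the only one of the 12 hubs whose groups overlapped. The log2 fold change of -0.38 ± 0.27 (limma, adjusted p = 0.308) was -0.01 without CK replicate 3.

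**Figure D2:**
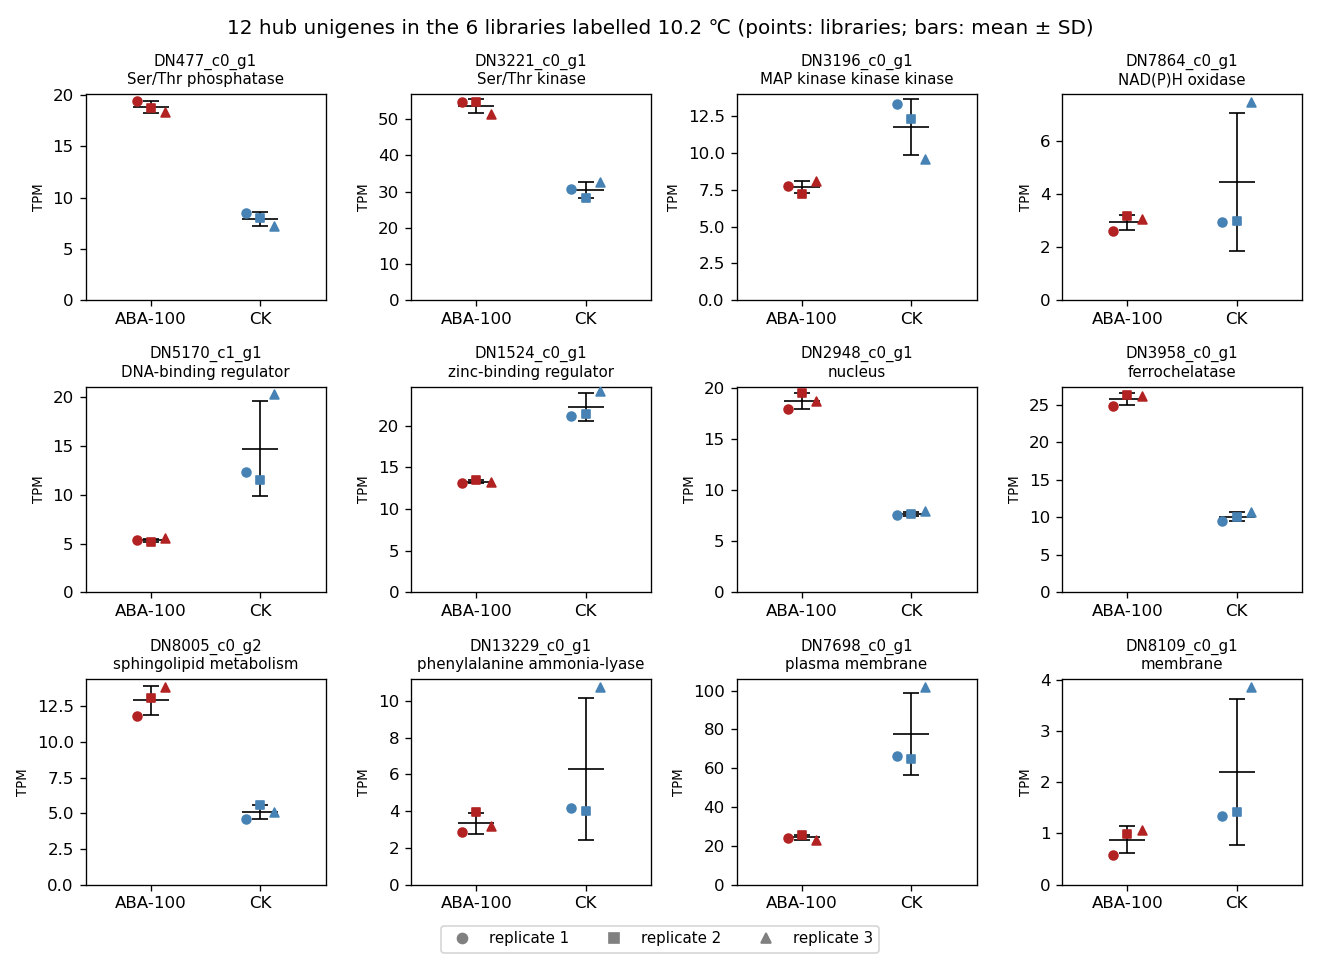
TPM of the 12 hub unigenes in the 3 libraries of ABA-100 (10.2 ℃), left in each panel, and the 3 of CK (10.2 ℃), right, with 1 point per library and the mean ± SD as a bar. The phosphatase DN477_c0_g1 had 18.3 to 19.45 TPM in ABA-100 and 7.19 to 8.51 TPM in CK, and in the panels of DN7864_c0_g1, DN8109_c0_g1 and DN13229_c0_g1 CK replicate 3 lies far above the other CK points.

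The nuclear hubs moved in both directions. DN5170_c1_g1, annotated as a DNA-binding transcription regulator, had 5.35, 5.19 and 5.53 TPM in ABA-100 (10.2 ℃), against 12.3, 11.5 and 20.3 TPM in CK (10.2 ℃). The ABA-100 libraries were lower and closer together, and the log2 fold change was -1.26 ± 0.30 (limma, adjusted p = 0.00244). Without CK replicate 3 it was -1.02 (adjusted p = 0.0199), just past the fold threshold. DN2948_c0_g1, a protein placed in the nucleus, had 17.9, 19.5 and 18.7 TPM in ABA-100, against 7.56, 7.66 and 7.94 TPM in CK. It was up-regulated, with a log2 fold change of 1.18 ± 0.12 (limma, adjusted p = 2.41e-07). DN1524_c0_g1, a zinc-binding transcription regulator, had 13.2, 13.5 and 13.2 TPM in ABA-100, against 21.1, 21.4 and 24.1 TPM in CK. The groups did not overlap, and the log2 fold change of -0.70 ± 0.078 (limma, adjusted p = 1.12e-06) did not reach the fold threshold.

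Among the hubs of metabolism, those of heme and sphingolipid synthesis were up-regulated. DN3958_c0_g1, annotated as ferrochelatase, the enzyme of the last step of heme synthesis, in which protoporphyrin receives its iron, had 24.8, 26.2 and 26.1 TPM in ABA-100, against 9.47, 10.1 and 10.7 TPM in CK. Its log2 fold change of 1.27 ± 0.087 (limma, adjusted p = 1.45e-09) was the largest rise among the 12. DN8005_c0_g2, listed in sphingolipid metabolism, the making of membrane lipids with a sphingoid base, had 11.8, 13.1 and 13.8 TPM in ABA-100, against 4.63, 5.59 and 5.10 TPM in CK. The groups lay far apart, with a log2 fold change of 1.19 ± 0.13 (limma, adjusted p = 8.91e-07). DN13229_c0_g1, annotated as phenylalanine ammonia-lyase, the entry enzyme of phenylpropanoid synthesis, had 2.86, 3.96 and 3.21 TPM in ABA-100, against 4.15, 4.02 and 10.8 TPM in CK. The highest ABA-100 value was just below the lowest CK value, and the log2 fold change of -0.64 ± 0.40 (limma, adjusted p = 0.235) was -0.24 without CK replicate 3.

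The strongest fall among the hubs was at the membrane. DN7698_c0_g1, annotated as anchored to the plasma membrane, had 24.2, 25.9 and 23.3 TPM in ABA-100 (10.2 ℃), against 66.1, 64.75 and 102 TPM in CK (10.2 ℃). Every ABA-100 library was below every CK library, and the log2 fold change was -1.60 ± 0.20 (limma, adjusted p = 4.52e-06). Without CK replicate 3 it was -1.39. DN8109_c0_g1, a membrane protein, had 0.58, 0.98 and 1.07 TPM in ABA-100, against 1.35, 1.42 and 3.85 TPM in CK. The log2 fold change of -0.70 ± 0.39 (limma, adjusted p = 0.177) was -0.36 without CK replicate 3.

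Unigenes without a name gave the largest changes. DN3629_c0_g1 had the largest rise among DEGs of at least 10 TPM in the higher group, with 60.2, 56.9 and 54.0 TPM in ABA-100, against 0.15, 0.36 and 0.56 TPM in CK. It was near 0 in every CK library, and its log2 fold change was 5.43 ± 0.27 (limma, adjusted p = 1.58e-11). DN3254_c0_g1 was the most abundant of the up-regulated DEGs whose groups did not overlap, with 2743, 2559 and 2294 TPM in ABA-100, against 562, 563 and 941 TPM in CK. Its CK replicate 3 was closest to the ABA-100 libraries, and the log2 fold change was 1.92 ± 0.16 (limma, adjusted p = 3.25e-08).

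On the falling side, DN14277_c0_g1 was listed at 0 in all 3 ABA-100 libraries, against 11.65, 17.1 and 4.87 TPM in CK. It had the largest fall by the same rule (limma, adjusted p = 0.0125), and no fold is given against values of 0. In CK the lowest value of DN14277_c0_g1 was also 0 TPM at -4.1, -5.3 and 9.7 ℃. A value of 0 was thus not particular to ABA-100 (10.2 ℃). DN14717_c1_g1 was the most abundant of the down-regulated DEGs without overlap, with 256, 244 and 277 TPM in ABA-100, against 1203, 1248 and 1306 TPM in CK. Both groups were tight, and the log2 fold change was -2.27 ± 0.31 (limma, adjusted p = 1.21e-05).

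Levels at 10.2 ℃ were also set against the rest of the series. For 566 of the 717 up-regulated DEGs (78.9%) the 3 ABA-100 (10.2 ℃) libraries were above all 12 CK libraries of the series, where 5.71% of all unigenes tested had this order. They were above all 21 other libraries for 163 (22.7%, against 1.39% of all tested), and the 3 CK (10.2 ℃) libraries were below all 21 others for 56 (7.81%, against 0.66%). Of the 347 down-regulated DEGs, ABA-100 (10.2 ℃) was below all 12 CK libraries for 157 (45.2%, against 19.7%) and below all 21 others for 71 (20.5%, against 5.63%). CK (10.2 ℃) was above all 21 others for 18 of them (5.19%, against 0.609%). These shares are descriptions, since the DEGs were chosen for a difference between the same libraries.

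The hubs showed both kinds of position. All 5 MEturquoise hubs were higher in the 3 ABA-100 (10.2 ℃) libraries than in any of the 12 CK libraries. The phosphatase DN477_c0_g1, for example, had 18.3 to 19.45 TPM in ABA-100 (10.2 ℃), and its highest CK value at any stage was 11.6 TPM. DN7698_c0_g1, DN5170_c1_g1 and DN8109_c0_g1 of MEbrown were lower in ABA-100 (10.2 ℃) than in all 21 other libraries. For DN7698_c0_g1 the ABA-100 (10.2 ℃) libraries had 23.3 to 25.9 TPM, the lowest value of any later ABA-100 library was 42.4 TPM and the lowest of any CK library was 45.4 TPM. DN3629_c0_g1 was higher in ABA-100 (10.2 ℃) than in all 21 others, with 54.0 to 60.2 TPM there and at most 33.0 TPM elsewhere.

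**Figure D3:**
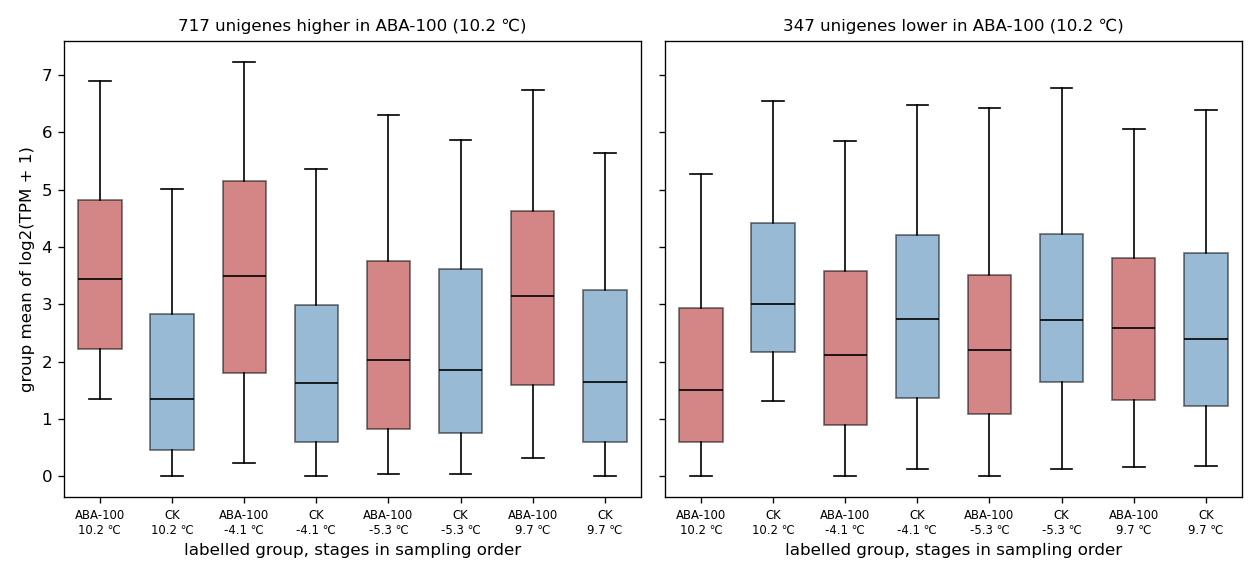
Levels of the 717 up-regulated and the 347 down-regulated DEGs of the 10.2 ℃ comparison in all 8 groups, as group means on the log2(TPM + 1) scale, with the median, the quartiles and whiskers from the 5th to the 95th percentile. The median of the up-regulated DEGs was 3.44 in ABA-100 (10.2 ℃) and 1.35 in CK (10.2 ℃), and that of the down-regulated DEGs was 1.51 in ABA-100 (10.2 ℃) and 3.002 in CK (10.2 ℃).

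Many DEGs of the first stage were called the same way between the labelled treatments at later stages, which share no library with it but, by the methods, the same seedlings. At -4.1 ℃, 469 of the 717 up-regulated DEGs were again up-regulated (65.4% of them, and 47.4% of the 989 up-regulated at -4.1 ℃). There 6.26% of all unigenes tested were DEGs, 4.6% up-regulated. At 9.7 ℃ the number was 376 (52.4%, and 48.7% of the 772 up-regulated there), where 4.01% of all tested were DEGs, 3.59% up-regulated. At -5.3 ℃ it was 33 (4.60%, and 33.3% of the 99 up-regulated there), where 1.82% of all tested were DEGs, 0.46% up-regulated. The 33 became 54 under median-of-ratios scaling and 71 with a pseudocount of 0.1. In the opposite direction, 11 of the 717 were down-regulated at -4.1 ℃ (1.53%), 11 at -5.3 ℃ (1.53%) and 6 at 9.7 ℃ (0.837%). Of all unigenes tested, 1.67%, 1.36% and 0.423% were down-regulated there. The median log2 fold change of the 717 was 1.57 at -4.1 ℃, 0.10 at -5.3 ℃ and 1.07 at 9.7 ℃, with -0.09, -0.15 and 0.04 over all unigenes tested at these stages.

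A minority of the down-regulated DEGs were called the same way at any later stage. Of the 347, 79 were again down-regulated at -4.1 ℃ (22.8%, and 22% of the 359 down-regulated there, 1.67% of all tested). At -5.3 ℃ 70 were (20.2%, and 24% of the 292 there, 1.36% of all tested), and at 9.7 ℃ 12 were (3.46%, and 13.2% of the 91 there, 0.423% of all tested). These counts moved with the processing. The 79 became 47 under median-of-ratios scaling, 176 with a pseudocount of 0.1 and 45 with only unigenes of at least 10 TPM, and the 70 became 38 under median-of-ratios scaling, 39 under quantile normalization and 148 with the smaller pseudocount, which also gave 32 in place of the 12. In the opposite direction, 9 of the 347 were up-regulated at -4.1 ℃ (2.59%), 5 at -5.3 ℃ (1.44%) and 17 at 9.7 ℃ (4.9%). Of all unigenes tested, 4.6%, 0.46% and 3.59% were up-regulated at these stages. The median log2 fold change of the 347 was -0.52 at -4.1 ℃, -0.56 at -5.3 ℃ and 0 at 9.7 ℃. At all 4 stages 24 unigenes were up-regulated and 6 were down-regulated. At no later stage were 192 of the up-regulated DEGs (26.8%) and 201 of the down-regulated DEGs (57.9%) called in either direction. The share of all unigenes tested with calls like these was not computed, so both sets of counts are descriptions.

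The group levels behind these counts differed by stage. The median level of the 717 unigenes on the log2(TPM + 1) scale was 3.44 in ABA-100 and 1.35 in CK at 10.2 ℃, 3.50 in ABA-100 and 1.62 in CK at -4.1 ℃, 2.02 in ABA-100 and 1.85 in CK at -5.3 ℃, and 3.15 in ABA-100 and 1.65 in CK at 9.7 ℃. The ABA-100 median was thus lower at -5.3 ℃ than at the other stages, while the CK medians stayed between 1.35 and 1.85. The 347 unigenes had medians of 1.51 in ABA-100 and 3.002 in CK at 10.2 ℃, of 2.12 in ABA-100 and 2.75 in CK at -4.1 ℃, of 2.21 in ABA-100 and 2.72 in CK at -5.3 ℃, and of 2.59 in ABA-100 and 2.40 in CK at 9.7 ℃.

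Whether the difference at 10.2 ℃ itself differed from that at a later stage was tested as an interaction in the same limma fit. Against -4.1 ℃, 616 unigenes were called (2.86% of all tested), 211 with a more positive log2 fold change at 10.2 ℃ (0.98%) and 405 with a more negative one (1.88%). Against -5.3 ℃, 704 were called (3.27%), with 595 more positive (2.76%) and 109 more negative (0.506%) at 10.2 ℃. Against 9.7 ℃, 977 were called (4.54%), with 270 more positive (1.25%) and 707 more negative (3.28%) at 10.2 ℃. This last split depended on the scaling, with 396 more positive and 411 more negative under median-of-ratios scaling and 417 more positive and 377 more negative under quantile normalization.

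Of 36 interactions of hub unigenes, 13 were called, where 2.86% of all unigenes tested were called against -4.1 ℃, 3.27% against -5.3 ℃ and 4.54% against 9.7 ℃. The study chose the hubs on these same libraries, those at -4.1 and -5.3 ℃ included. The excess over all unigenes is therefore no independent evidence, and the interactions of hubs are descriptions. All 5 MEturquoise hubs differed more between the labelled treatments at -4.1 ℃ than at 10.2 ℃, though for the kinase DN3221_c0_g1 the difference of -1.04 was -0.99, short of the fold threshold, without CK replicate 3. The log2 fold change of the phosphatase DN477_c0_g1 was 1.16 at 10.2 ℃ and 2.33 at -4.1 ℃, a difference of -1.17 ± 0.09 (SE; limma, adjusted p = 8.59e-08). At -5.3 ℃ its log2 fold change was 0.06, and the difference of 1.10 ± 0.09 was called as well (adjusted p = 5.31e-08). At 9.7 ℃ it was 1.17, and the difference of -0.02 ± 0.09 was not called (adjusted p = 0.915). In TPM, DN477_c0_g1 had 18.8 ± 0.573 in ABA-100 and 7.91 ± 0.667 in CK at 10.2 ℃, and 43.7 ± 1.28 in ABA-100 and 7.92 ± 0.245 in CK at -4.1 ℃ (SD, n = 3 each).

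For ferrochelatase, DN3958_c0_g1, the order of the stages was alike. Its log2 fold change was 1.27 at 10.2 ℃, 2.53 at -4.1 ℃, -0.20 at -5.3 ℃ and 1.57 at 9.7 ℃. The difference of 10.2 ℃ from -4.1 ℃ was -1.25 ± 0.12 (limma, adjusted p = 1.66e-06), that from -5.3 ℃ was 1.48 ± 0.12 (adjusted p = 6.65e-08), and that from 9.7 ℃ was -0.30 ± 0.12 (adjusted p = 0.0811), not called. DN8005_c0_g2 of sphingolipid metabolism had log2 fold changes of 1.19 at 10.2 ℃ and 3.03 at -4.1 ℃, a difference of -1.84 ± 0.18 (limma, adjusted p = 1.86e-06).

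The fall of the membrane hub DN7698_c0_g1 at 10.2 ℃ was not seen at -4.1 ℃ or at 9.7 ℃. It had 24.4 ± 1.32 TPM in ABA-100 and 77.7 ± 21.2 TPM in CK at 10.2 ℃, against 65.7 ± 8.50 TPM in ABA-100 and 49.6 ± 6.24 TPM in CK at 9.7 ℃ (SD, n = 3 each). Its -1.60 at 10.2 ℃ on the log2 scale differed from the -0.29 at -4.1 ℃ by -1.31 ± 0.28 (limma, adjusted p = 0.00418) and from the 0.40 at 9.7 ℃ by -1.996 ± 0.28 (adjusted p = 8.15e-05). From the -1.25 at -5.3 ℃ the difference of -0.34 ± 0.28 was not called (adjusted p = 0.584). The transcription regulator DN5170_c1_g1 had 5.36 ± 0.170 TPM in ABA-100 and 14.7 ± 4.88 TPM in CK at 10.2 ℃, against 14.9 ± 6.202 TPM in ABA-100 and 9.16 ± 3.25 TPM in CK at 9.7 ℃. Its log2 fold changes of -1.26 and 0.63 differed by -1.89 ± 0.42 (limma, adjusted p = 0.00305).

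Phenylalanine ammonia-lyase, DN13229_c0_g1, was not called at 10.2 ℃ and was down-regulated at -4.1 and -5.3 ℃. Its level was 3.34 ± 0.562 TPM in ABA-100 and 6.32 ± 3.87 TPM in CK at 10.2 ℃, and 1.02 ± 0.157 TPM in ABA-100 and 22.5 ± 21.6 TPM in CK at -4.1 ℃ (SD, n = 3 each). The CK libraries at -4.1 ℃ ranged widely, between 9.65 and 47.5 TPM. The log2 fold changes of -0.64 and -3.16 differed by 2.52 ± 0.56 (limma, adjusted p = 0.00543). At -5.3 ℃ the log2 fold change was -1.08 (limma, adjusted p = 0.0467). The difference of 10.2 ℃ from -5.3 ℃, 0.44 ± 0.56, was not called (adjusted p = 0.757).

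**Figure D4:**
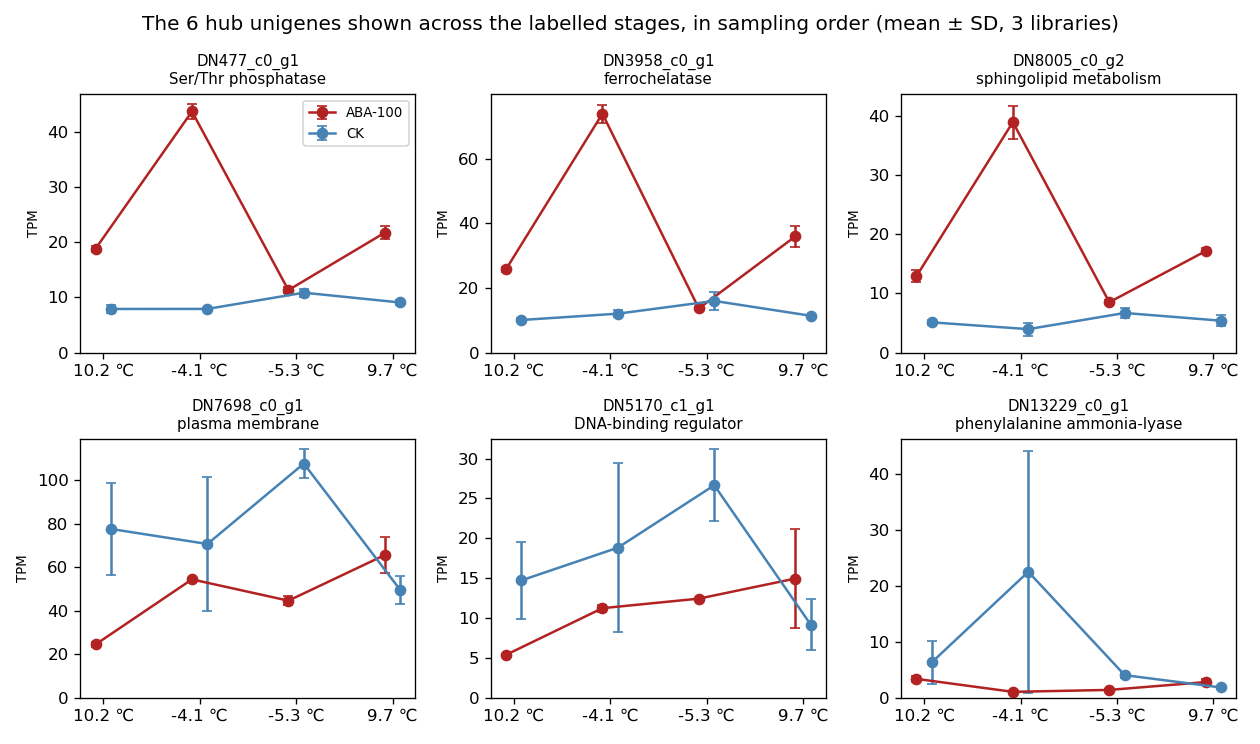
TPM of 6 hub unigenes (DN477_c0_g1, DN3958_c0_g1, DN8005_c0_g2, DN7698_c0_g1, DN5170_c1_g1 and DN13229_c0_g1) at the 4 stages in order of sampling, for ABA-100 and for CK, as the mean ± SD of 3 libraries. DN477_c0_g1 lies at 18.8 TPM in ABA-100 and 7.91 TPM in CK at 10.2 ℃ and at 11.3 TPM in ABA-100 and 10.9 TPM in CK at -5.3 ℃, and DN7698_c0_g1 in ABA-100 is lowest at 10.2 ℃, with 24.4 TPM.

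DN14717_c1_g1 was down-regulated at 10.2 ℃ and up-regulated at -4.1 ℃. It had a log2 fold change of -2.27 at 10.2 ℃, 3.93 at -4.1 ℃, 0.20 at -5.3 ℃ and 0.17 at 9.7 ℃. Both unigenes of this paragraph were chosen for their values at 10.2 ℃, so their course over the stages is a description. DN3629_c0_g1 had 57.0 ± 3.09 TPM in ABA-100 and 0.357 ± 0.205 TPM in CK at 10.2 ℃, 30.1 ± 4.22 TPM in ABA-100 and 0.913 ± 0.471 TPM in CK at -4.1 ℃, 1.33 ± 0.255 TPM in ABA-100 and 2.17 ± 1.61 TPM in CK at -5.3 ℃, and 19.2 ± 2.57 TPM in ABA-100 and 1.17 ± 0.710 TPM in CK at 9.7 ℃ (SD, n = 3 each).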

How the data were processed

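RNA-Seq was done on leaves in 24 libraries, 8 groups of 3. Paired-end reads were trimmed with SeqPrep and Sickle, assembled with Trinity without a genome and quantified with RSEM, versions not stated. The deposited values are TPM, which the authors corrected for the length of each transcript and brought to one total in every library. The labels and the methods name different library kits. TPM keep no counts, so the number of reads behind each value is unknown (the read totals that the paper lists per library were not used), and the DESeq2 test of the authors, which needs counts, was not repeated. All 24 sample columns were used, and 0 others.

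Groups and replicate numbers came from the labels. Of 33344 unigenes, the 21523 whose level was 1 TPM or more in 3 libraries or more were tested. A mean per group was fitted to log2(TPM + 1) of all libraries with limma 3.58.1 (trend, R 4.3.3). The adjustment of p followed Benjamini-Hochberg, over the whole set tested. Tests were two-sided. The script was tested on simulated data. Principal components were taken from 21068 unigenes that varied among the 6 libraries, centred and scaled. Figures were drawn with matplotlib 3.10.9.

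The groups, lists and unigenes were chosen with earlier results of these data known. Named unigenes are the 12 annotated hubs and, among unannotated DEGs without overlap, in each direction the largest change with at least 10 TPM in the higher group and the most abundant. Alternatives were 2 scalings, a pseudocount of 0.1, other filters and fold thresholds, no trend, a replicate block, a fit of the 6 libraries alone and omission of each library. A replicate block within each labelled treatment was added after seeing the data. No sequences were used, and marker lists of cell types and pathways could not be built without names.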

Additional observations from a re-analysis of the deposited data

Results flagged for a closer look

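The difference between ABA-100 and CK at 10.2 ℃ was not the same as at the later stages, by the interaction tests of the limma fit. It differed from that at -4.1 ℃ for 616 unigenes, from that at -5.3 ℃ for 704 and from that at 9.7 ℃ for 977. The causes were not tested.

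Hub unigenes whose log2 fold change at 10.2 ℃ was lower than at -4.1 ℃ were DN8005_c0_g2 (difference -1.84), DN2948_c0_g1 (-1.51), DN3196_c0_g1 (-1.32; limma, adjusted p = 0.00233), DN7698_c0_g1 (-1.31), DN3958_c0_g1 (-1.25), DN477_c0_g1 (-1.17) and DN3221_c0_g1 (-1.04). The MAP kinase kinase kinase DN3196_c0_g1 had a log2 fold change of -0.54 at 10.2 ℃ and 0.78 at -4.1 ℃. For the kinase DN3221_c0_g1 the difference was short of the fold threshold under median-of-ratios scaling (-0.98), under quantile normalization (-0.95) and without CK replicate 3 (-0.99). DN13229_c0_g1 had a log2 fold change higher at 10.2 ℃ than at -4.1 ℃, by 2.52. Against -5.3 ℃ the hubs DN2948_c0_g1 (1.54), DN3958_c0_g1 (1.48) and DN477_c0_g1 (1.10) had the larger log2 fold change at 10.2 ℃. Against 9.7 ℃ the log2 fold changes of DN7698_c0_g1 (-1.996) and DN5170_c1_g1 (-1.89) were lower at 10.2 ℃. The study chose the hubs on these same libraries, so these differences are descriptions.

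The unigenes without a name were chosen for their values at 10.2 ℃, so their differences from later stages are descriptions and support nothing. DN3629_c0_g1 had a larger log2 fold change at 10.2 ℃ than at -4.1 ℃ by 1.39, than at -5.3 ℃ by 5.77 and than at 9.7 ℃ by 2.16. The first of these was not called without ABA-100 replicate 1 (1.35), without CK replicate 1 (1.27), with a pseudocount of 0.1 (2.09) or with a replicate block within each labelled treatment (1.39). DN3254_c0_g1 exceeded its log2 fold change at -5.3 ℃ by 1.89. DN14717_c1_g1 was below its log2 fold changes at -4.1 ℃ (difference -6.197), -5.3 ℃ (-2.47) and 9.7 ℃ (-2.44). DN14277_c0_g1 was below those at -4.1 ℃ (-6.67) and -5.3 ℃ (-5.93), fitted values that depend on the pseudocount and give no fold, since it was listed at 0 in ABA-100 (10.2 ℃).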

How the results depend on the processing

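The reads behind each TPM value are unknown, so counting error cannot be given, and 3 libraries against 3 cannot go below an exact permutation p of 0.1. With 1 library of the 6 left out, the DEGs at 10.2 ℃ numbered 1008 to 1094, with 696 to 735 up-regulated and 303 to 392 down-regulated. Median-of-ratios scaling gave 165 down-regulated at -5.3 ℃ in place of 292, and 411 more negative interactions against 9.7 ℃ in place of 707. Quantile normalization gave 778 up-regulated and 288 down-regulated at 10.2 ℃ (73.0% up-regulated), 164 down-regulated at -5.3 ℃, 155 at 9.7 ℃ in place of 91, and 417 more positive and 377 more negative interactions against 9.7 ℃. It also set the log2 fold change of DN24444_c2_g1 to 0 by its construction. A pseudocount of 0.1 gave 1599 DEGs at 10.2 ℃, 657 of them down-regulated, with 646 down-regulated at -4.1 ℃, 181 up-regulated and 515 down-regulated at -5.3 ℃ and 148 down-regulated at 9.7 ℃. Only unigenes at 10 TPM or more in 3 libraries left 575 DEGs at 10.2 ℃ (407 up-regulated, 168 down-regulated), 605 and 148 at -4.1 ℃, 49 and 138 at -5.3 ℃, and 459 and 47 at 9.7 ℃, since fewer were tested. That filter gave 97 more positive interactions against -4.1 ℃, 378 more positive and 49 more negative against -5.3 ℃, and 148 more positive and 290 more negative against 9.7 ℃. Adjusted p alone gave 7836 unigenes at 10.2 ℃ (1940 higher, 5896 lower), and an absolute log2 fold change above 2 gave 270 (224 up-regulated, 46 down-regulated). Equal replicate numbers did not pair ABA-100 with CK at 10.2 ℃, with correlations of the deviations from the group means of 0.0071, 0.0168 and -0.0071 across unigenes. Between stages of one labelled treatment, for which the methods name the same seedlings, they ranged between -0.0987 and 0.285, with 7 of 36 above 0.1. The highest, replicate 3 of ABA-100 at 10.2 and -5.3 ℃, stood beside -0.154 and -0.173 for unlike numbers. The lowest, replicate 3 of CK at -4.1 and -5.3 ℃, stood beside 0.0401 and 0.0748. The numbers were not taken as pairs in the main fit, so a partial pairing of the stages is left out of it. A replicate block within each labelled treatment, chosen after seeing the data, gave 225 more positive and 399 more negative interactions against -4.1 ℃, 601 and 121 against -5.3 ℃, and 283 and 713 against 9.7 ℃, and changed none of the 13 hub calls. A replicate block over all libraries gave 1068 DEGs at 10.2 ℃ (718 up-regulated, 350 down-regulated), and in a fit of the 6 libraries alone 847, with 224 down-regulated, against 957 without the block. The causes were not tested beside these constructions. Of the values that answer a comparison, 204 recomputed ones were labelled the same and 33 moved. For counts the same means within 1.5 times. The scores of the first principal component among the 204 were labelled by sign and call, which could not change.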

Other observations

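The most abundant unigene of the table, DN24444_c2_g1, was chosen after its values were seen. It had 61196, 54934 and 56364 TPM in ABA-100 (10.2 ℃), against 48510, 46319 and 39988 TPM in CK (10.2 ℃). The ABA-100 (10.2 ℃) libraries were above all 21 others, but the log2 fold change of 0.36 was below the threshold for a DEG (limma, adjusted p = 0.056). That adjusted p moved with the processing, to 0.0285 under median-of-ratios scaling and to 0.324 with no filter. The 10 most abundant unigenes took 21.4%, 20.3% and 20.6% of all TPM in ABA-100 (10.2 ℃), against 19.0%, 19.0% and 17.7% in CK (10.2 ℃), at the smallest two-sided exact permutation p for 3 against 3 (p = 0.1). TPM are shares of a fixed total, and the part of this in the lower median of all unigenes was not tested.

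Unigenes of one Trinity component share sequence. Of the 1064 DEGs at 10.2 ℃, 105 (9.87%) shared a component with another DEG, in 51 components, of which 49 held DEGs of one direction and 2 of both. Sharing with any other unigene tested is a different quantity and held for 7541 of all tested (35.0%), so these shares are not compared.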
